A study of Mus musculus with 6 samples.

Results

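Regulators of G protein signalling (RGS proteins) were followed in Raw264.7 cells, a mouse macrophage line, by taking the rows of the gene count table for 9 named genes: Rgs1, Rgs2, Rgs3, Rgs10, Rgs12, Rgs14, Rgs16, Rgs18 and Rgs19. All 9 were found among the 16171 genes of the table. The table holds 9 further genes whose symbols begin with Rgs, of which Rgs11 stood near Rgs19 on the control surface per gene length (21.2 ± 2.57 and 22.7 ± 2.02 FPKM, reads normalised to gene length and depth; SD, n = 3 each), so the 9 are not the whole family. The cells, wild type by their labels, were grown on titanium carrying titanate nanowires made by alkaline heat treatment (TH, the control surface, 3 libraries) or a calcium phosphate nanowire coating (THCaP, 3 libraries). On both surfaces an attachment period of 12 h was followed by 2 h with lipopolysaccharide (LPS, 1 µg/mL) and by 1 d of culture. No library without LPS was analysed here, so the surfaces are compared only after LPS. The comparison asks how the coating alters gene expression of these macrophages. The line is a single transformed cell line, and since no label tells if a surface's libraries derive from independent cultures, p-values measure only the spread between these libraries.

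An RGS protein binds the activated alpha subunit of a heterotrimeric G protein through its RGS domain and speeds the hydrolysis of GTP, which ends the signal that a G protein coupled receptor started. In leukocytes such receptors sense chemokines, complement fragments, lipids and nucleotides, and RGS proteins shorten the response to them. Rgs1, Rgs2, Rgs16 and Rgs18 encode small proteins that are little more than an RGS domain. Rgs12 and Rgs14 encode larger proteins that also hold Ras-binding domains and a GoLoco motif, which binds inactive alpha subunits.

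The members were chosen by gene symbol with earlier measured fold changes of THCaP over TH in view, in which Rgs16 was among the larger decreases. Their fold changes and calls are therefore a description taken from a fit of the whole table, and nothing is supported with them. By that fit Rgs16 and Rgs1 fell on THCaP and Rgs19 rose, while Rgs2, Rgs3, Rgs10, Rgs12 and Rgs14 were not called and Rgs18 was too low to test. Thus 2 members were called lower and 1 higher of the 8 tested, or 37.5%, where 23.6% of the 11480 tested genes were called (edgeR quasi-likelihood test, Benjamini-Hochberg adjusted p under 0.05; 12.0% lower and 11.6% higher). Nothing is read from the difference between these shares, since the choice of members was not blind to the calls. With scaling to library totals alone, 2 members were lower and 2 higher, the addition being Rgs14, and of all genes 1063 were lower and 1904 higher, in place of 1376 and 1333. The median log2 fold change of the 8 was −0.12, beside 0.01 for all tested genes.

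Of the members, 4 lie on chromosome 1 of GRCm38 (the assembly that mm10 denotes; GENCODE vM21 annotation). Rgs2 (143999338 to 144004161), Rgs1 (144242296 to 144249242) and Rgs18 (144752683 to 144775435), all on the minus strand, stand in a cluster of 5 Rgs genes that spans 776.1 kb and also holds Rgs13 and Rgs21. Rgs16 lies 8.96 Mb further on, at 153740349 to 153745468 on the plus strand, with Rgs8 40.03 kb before it. The others are on chromosomes of their own: Rgs19 on chromosome 2 (181688419 to 181693977), Rgs3 on 4 (62559847 to 62704001), Rgs12 on 5 (34949445 to 35039644), Rgs10 on 7 (128373621 to 128418758) and Rgs14 on 13 (55369732 to 55384687). All 9 are protein coding. The longest annotated coding sequences run from 181 residues for Rgs10 and 201 for Rgs16 to 966 for Rgs3 and 1451 for Rgs12. On the opposite strand, Gm28513 shares exonic bases with Rgs16, and Gm43791 does so with Rgs12. Reads of these genes and their antisense partners cannot be told apart, since it is not known here if counting used the strand.

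The promoters of Rgs16, Rgs2 and Rgs19 are shown because these genes are, in turn, the member with the largest decrease, an abundant member that was not called and the member called higher. Each window holds 250 bases before and 50 after an annotated start (RefSeq, GRCm38.p6), read 5′ to 3′ on the gene's strand, with motif matches in capitals (CCGCCC and ATTGG are GC and CCAAT boxes read on the other strand). Rgs16 is at chr1:153740103-153740402 (plus strand), Rgs2 at chr1:144004100-144004399 (minus strand) and Rgs19, the most upstream of its 3 windows, at chr2:181693928-181694227 (minus strand).
Rgs16: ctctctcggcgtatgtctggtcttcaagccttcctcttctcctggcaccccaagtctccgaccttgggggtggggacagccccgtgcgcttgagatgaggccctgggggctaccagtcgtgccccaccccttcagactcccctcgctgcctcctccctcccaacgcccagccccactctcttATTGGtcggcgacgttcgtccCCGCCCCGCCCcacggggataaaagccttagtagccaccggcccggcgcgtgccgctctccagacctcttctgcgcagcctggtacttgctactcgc
Rgs2: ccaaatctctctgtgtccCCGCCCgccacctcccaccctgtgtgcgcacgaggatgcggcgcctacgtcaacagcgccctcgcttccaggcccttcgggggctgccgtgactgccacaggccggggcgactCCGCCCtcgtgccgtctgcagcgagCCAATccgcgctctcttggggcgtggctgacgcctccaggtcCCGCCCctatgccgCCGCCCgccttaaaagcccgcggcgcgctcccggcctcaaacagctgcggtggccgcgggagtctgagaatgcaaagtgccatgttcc
Rgs19: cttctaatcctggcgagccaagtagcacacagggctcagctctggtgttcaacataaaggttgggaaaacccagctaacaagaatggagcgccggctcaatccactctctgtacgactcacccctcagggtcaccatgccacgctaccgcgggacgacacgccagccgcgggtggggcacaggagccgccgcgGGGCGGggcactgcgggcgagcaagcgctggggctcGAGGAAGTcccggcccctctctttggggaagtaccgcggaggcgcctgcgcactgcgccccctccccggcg

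In all, 10 such windows were found for 6 members, Rgs2, Rgs3, Rgs10, Rgs12, Rgs16 and Rgs19, and were searched on both strands for 9 motifs. The Rgs16 window holds an NF-Y box (CCAAT, here read as ATTGG) from −68 to −64 relative to the start and a pair of GC boxes (GGGCGG) that share a base, from −47 to −42 and from −42 to −37. The Rgs2 window holds a CCAAT box from −94 to −90 and 4 GC boxes. The Rgs19 window holds a GC box from −57 to −52 and a PU.1 motif (GAGGAAGT) from −21 to −14, the motif of a transcription factor that directs macrophage differentiation. The PU.1 motif and this GC box also fall in a second, overlapping Rgs19 window. GC boxes stood in 8 of the 10 member windows and in 35.7% of the 32851 windows of all genes. PU.1 motifs stood in 3, those of Rgs19 counting the same letters again, against 3.2% of all windows, and CCAAT boxes in 2 against 37.4%. No member window held the κB motif of NF-κB (4.51% of all windows), the interferon-stimulated response element (3.44%) or the cyclic AMP response element TGACGTCA (1.79%). TGANTCA of AP-1 (7.81% of all windows) stood in 1, CACGTG (7.15%) in 1 and TATAAA (13.6%) in 2. A match is a description of these letters and no evidence of a bound site.

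Sequence after the stop codon also differed among members. ATTTA, the core of AU-rich elements that mark short-lived transcripts, occurs 10 times in the longest annotated 3′ UTR of Rgs1 (3006 bases), and 6.51% of 11047 tested genes with a 3′ UTR hold as many or more. It occurs 5 times in that of Rgs2 (2342 bases), 4 times in that of Rgs16 (1613 bases) and 5 times in that of Rgs18 (1129 bases). Rgs3 and Rgs19 hold 1 each, and Rgs10, Rgs12 and Rgs14 hold 0. Per kilobase of 3′ UTR the values were 4.43 for Rgs18, 3.33 for Rgs1, 2.48 for Rgs16, 2.13 for Rgs2, 1.18 for Rgs19 and 0.38 for Rgs3, and 16%, 26.7% and 32.8% of those genes had as high a density as Rgs1, Rgs16 and Rgs2. The deposited values of Rgs1 imply a counted gene length of 1347 bases, shorter than its 3′ UTR of 3006 bases. Whether that long 3′ UTR is expressed in these cells was not tested.

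The libraries held 28000099 to 30317108 counts. Values in CPM are counts scaled by library size and TMM factor, and a gene at 0 could stand at up to 0.108 CPM (3 counts), by counting error only. Values of 3 libraries are given in the order of replicates 1 to 3. On principal components of log2 CPM, THCaP replicate 3 lay nearest to TH (5.51 on the first, with the other THCaP libraries at 19.8 and 37.1), and TH replicate 1 stood apart on the second (22.7, other libraries between −10.5 and 0.82). All 9 macrophage markers were detected, with summed levels of 2444 to 2950 CPM in TH and 2634 to 2930 CPM in THCaP libraries. Of these, Lyz2 was the one called, higher. Summed markers were at most 0.036 CPM for neutrophils (S100a8 at 0), 0.35 for fibroblasts and 0.736 for B cells. T cell markers summed to 3.61 to 5.75 CPM, nearly all from Lck, with Cd3e at 1 count in TH replicate 2 and 0 in every other library.

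Rgs16 is induced by inflammatory stimuli and acts on Gαi and Gαq. Its level was 27.2, 25.2 and 25.5 CPM on TH against 7.25, 5.02 and 11.2 CPM on THCaP. All TH libraries lay within a narrow band, and the THCaP libraries were spread more widely below it, with replicate 3 the highest. The means were 26.0 ± 1.08 CPM on TH and 7.82 ± 3.12 CPM on THCaP (SD, n = 3 each), a 3.32-fold decrease (log2 −1.73 ± 0.23 SE, edgeR adjusted p = 0.00331). Without THCaP replicate 3 the log2 fold change was −2.08, and without THCaP replicate 2 it was −1.49. Both values were called.

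Rgs1, which restrains migration toward chemokines in lymphocytes and myeloid cells, was the most abundant member per gene length (FPKM). In CPM, which ignores gene length, Rgs2 had the higher mean on THCaP (184 against 125 CPM). Rgs1 stood at 278, 204 and 204 CPM on TH against 129, 97.2 and 148 CPM on THCaP. TH replicate 1 was the highest library, and no THCaP library reached the TH range. Rgs1 fell 1.83-fold, from 229 ± 42.8 CPM to 125 ± 25.8 CPM (SD, n = 3 each; log2 fold change −0.87 ± 0.17 SE by edgeR, adjusted p = 0.0089). The decrease was −0.71 without TH replicate 1 (adjusted p = 0.0279) and −1.01 without THCaP replicate 3. Limma on log2(FPKM + 1) with no filter gave −0.82 and did not call it (adjusted p = 0.0571).

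Rgs2, a regulator with a preference for Gαq, lies in the same cluster on chromosome 1 as Rgs1 but was not called. It stood at 256, 177 and 198 CPM on TH against 183, 141 and 227 CPM on THCaP. The surfaces overlapped, with TH replicate 1 and THCaP replicate 3 the highest libraries. The log2 fold change was −0.19 (SE 0.18, edgeR adjusted p = 0.443), and it was −0.03 without TH replicate 1 and −0.37 without THCaP replicate 3 (adjusted p = 0.0755). Rgs18, a regulator known from platelets and their precursors, was near the detection limit, with 1, 2 and 2 counts in TH and 7, 9 and 4 counts in THCaP libraries. It did not pass the filter, and with no filter it was not called (edgeR adjusted p = 0.0873). Of the platelet markers, Pf4 and Ppbp were at 0 in all libraries, Itga2b summed to 226 counts over TH and 139 over THCaP libraries, and Gp9 summed to 1 and 6 counts. The part of such cells in the counts of Rgs18 was not tested.

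**Figure D1:**
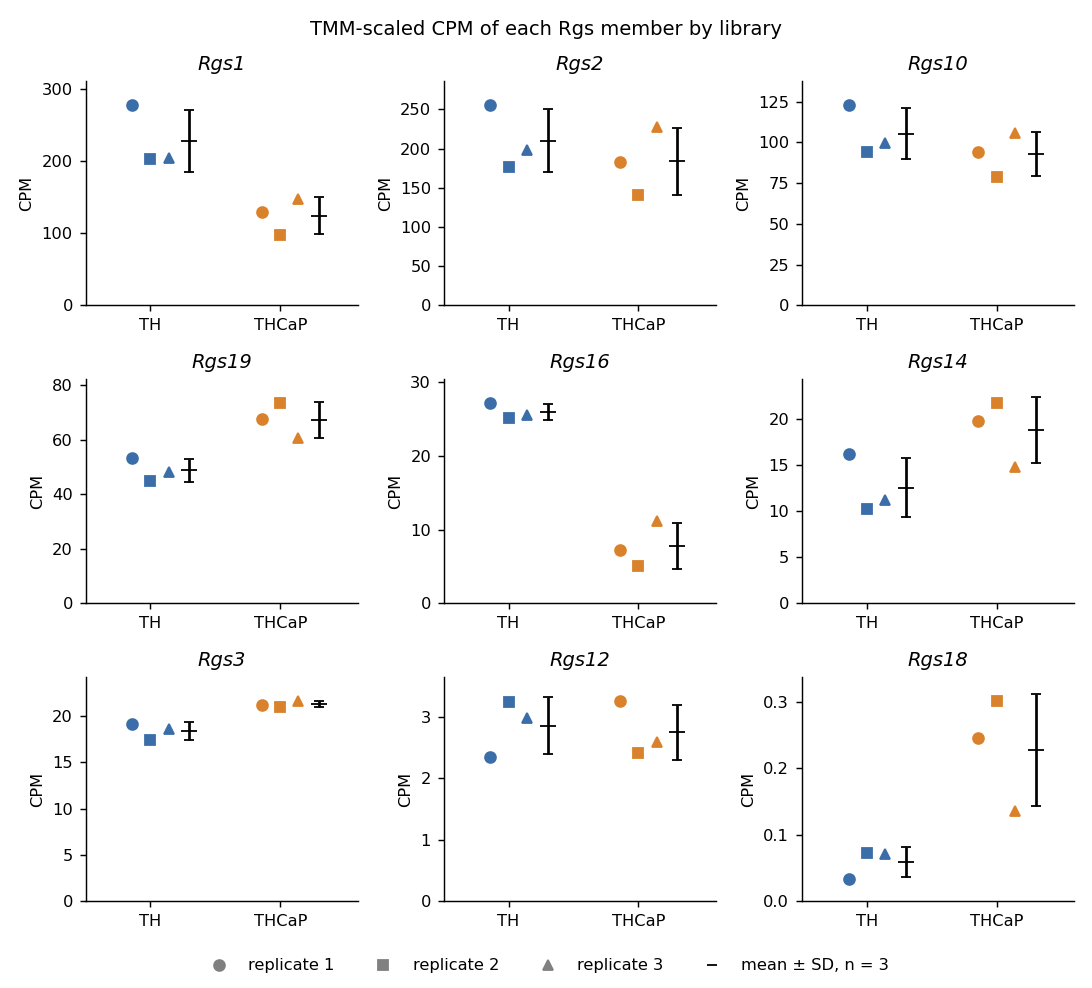
TMM-scaled CPM (vertical axes, each from 0) of the 9 members in the 3 TH (blue) and 3 THCaP (orange) libraries, with symbols for the replicate numbers and black bars for the mean ± SD of each surface. THCaP libraries of Rgs16 lie between 5.02 and 11.2 CPM, all below the TH libraries (25.2 to 27.2 CPM), whereas the surfaces overlap for Rgs2, Rgs10, Rgs12 and Rgs14.

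Rgs19, also called GAIP, acts on Gαi and binds membranes through a cysteine string. Its level was 53.4, 45.1 and 48.2 CPM on TH against 67.8, 73.5 and 60.5 CPM on THCaP. The surfaces did not overlap, and the gap was smallest between TH replicate 1 and THCaP replicate 3. Rgs19 rose 1.38-fold, from 48.9 ± 4.21 CPM to 67.3 ± 6.5 CPM (SD, n = 3 each; log2 fold change 0.46 ± 0.10 SE by edgeR, adjusted p = 0.0139). The call was lost without TH replicate 2 (adjusted p = 0.0666), TH replicate 3 (0.0615) or THCaP replicate 1 (0.0585), with log2 fold changes of 0.40 to 0.46.

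Rgs14, a scaffold that binds Gαi and Ras family proteins, stood at 16.2, 10.3 and 11.2 CPM on TH against 19.8, 21.7 and 14.8 CPM on THCaP. THCaP replicate 3 lay below TH replicate 1, so the surfaces overlapped by these libraries alone. Rgs14 was not called (log2 fold change 0.58 ± 0.19 SE by edgeR, adjusted p = 0.0549). It was called without TH replicate 1 (0.80, adjusted p = 0.0264), without THCaP replicate 3 (0.72, adjusted p = 0.00891) and without both (0.95, adjusted p = 0.000321), and DESeq2 called it on all libraries (adjusted p = 0.015).

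**Figure D2:**
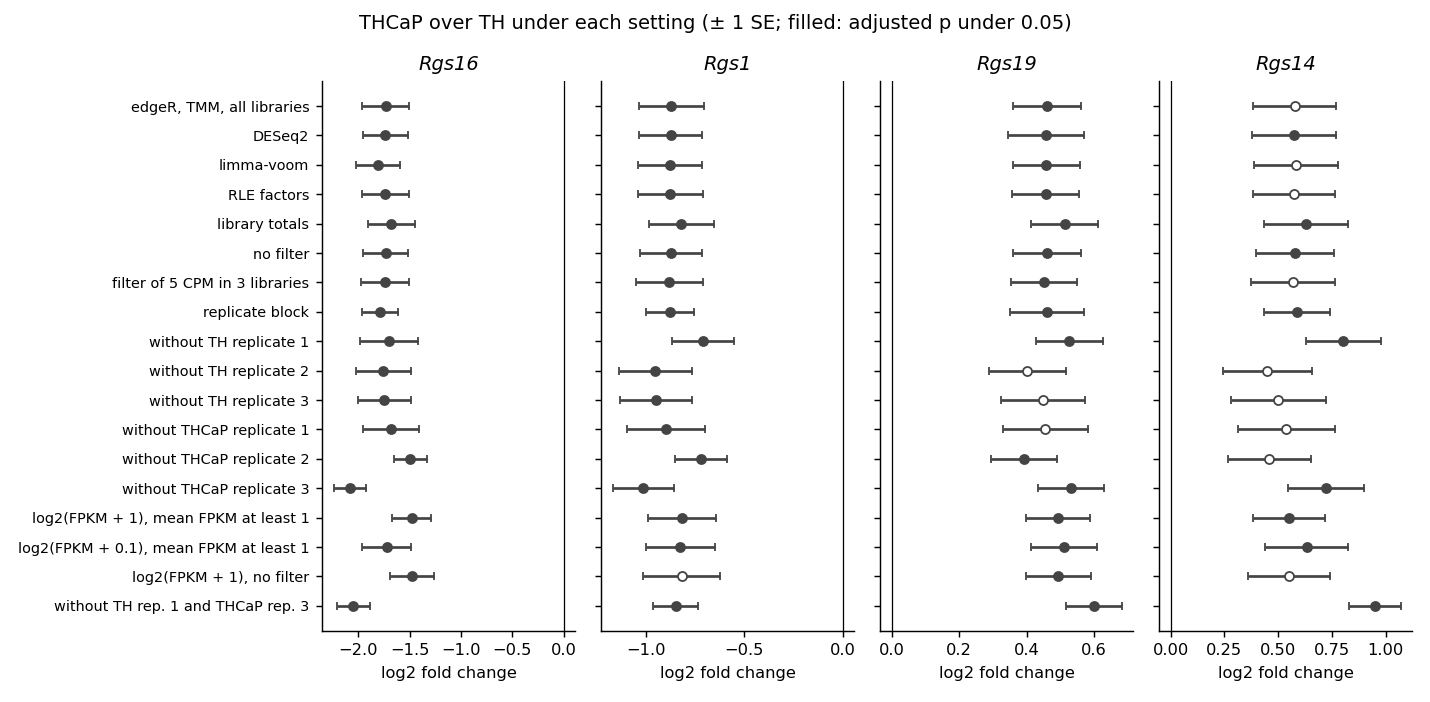
Log2 fold change (horizontal axes, bars ± 1 SE) of Rgs16, Rgs1, Rgs19 and Rgs14 with all libraries in edgeR and under 17 other settings (rows), filled where the adjusted p was under 0.05. Rgs16 is filled throughout, between −2.08 and −1.48, and Rgs14 changes between open and filled.

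Rgs12, which like Rgs14 has a GoLoco motif, was low, at 2.34, 3.24 and 2.97 CPM in TH and 3.26, 2.41 and 2.59 CPM in THCaP libraries, with a log2 fold change of −0.05 (SE 0.22). Rgs10, a small Gαi regulator known to restrain inflammatory activation of microglia and macrophages, stood at 123, 94.0 and 99.5 CPM in TH and 94.3, 79.0 and 106 CPM in THCaP libraries. Its surfaces overlapped (−0.18, SE 0.13, edgeR adjusted p = 0.32). Rgs3, whose longer isoforms carry further domains, had a coefficient of variation of 1.52% among THCaP libraries. It stood at 19.2, 17.4 and 18.6 CPM in TH and 21.2, 21.0 and 21.6 CPM in THCaP libraries. The surfaces did not overlap for Rgs3, yet it was not called (0.21, SE 0.09, edgeR adjusted p = 0.123). In all, 4 of 8 tested members had surfaces that did not overlap, beside 43.4% of all tested genes.

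**Figure D3:**
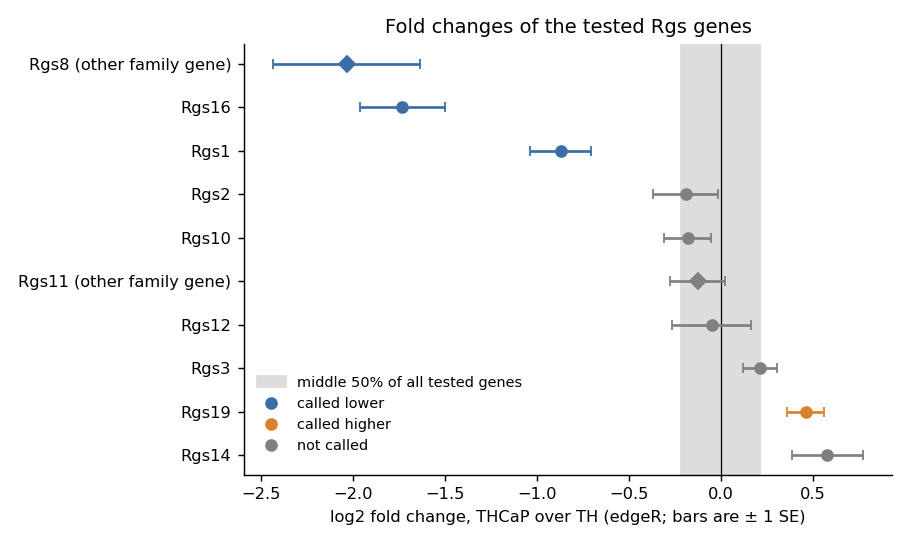
Log2 fold change of THCaP over TH (horizontal axis, bars ± 1 SE) for the 8 tested members (circles) and for Rgs11 and Rgs8, tested family genes outside the 9 (diamonds), coloured by the edgeR call, with the middle 50% of all tested genes (−0.22 to 0.21) shaded. Rgs16 (−1.73) and Rgs1 (−0.87) lie left of the shaded band, and Rgs19 (0.46) and Rgs14 (0.58) lie right of it.

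Levels were compared between genes per length, as the FPKM that the authors deposited. On TH the order was Rgs1 (167 ± 32.0 FPKM, SD, n = 3), Rgs2 (68.6 ± 13.5), Rgs10 (67.1 ± 10.1), Rgs19 (22.7 ± 2.02), Rgs16 (10.9 ± 0.498), Rgs14 (5.07 ± 1.32), Rgs3 (1.53 ± 0.078), Rgs12 (0.255 ± 0.0409) and Rgs18 (0.029 ± 0.0108). Rgs2 and Rgs10 did not differ beyond their spread, while the libraries of every other pair of neighbours in this order were apart. On THCaP Rgs1 had the highest mean (94.4 ± 19.7 FPKM). Its lowest library lay below the highest of Rgs2, but within each library Rgs1 stood above Rgs2. Rgs2 (62.3 ± 14.6) and Rgs10 (61.4 ± 8.95) again could not be ordered. Rgs19 followed (32.3 ± 3.06), and Rgs14 (7.85 ± 1.48) stood above Rgs16 (3.41 ± 1.37), the reverse of their order on TH, with no overlap between their libraries on either surface. The FPKM of Rgs1 rest on a gene length of 1347 bases, as implied by the deposited counts and FPKM. A longer gene model could change both its counts and its FPKM, in a direction that was not tested.

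Ratios between members within a library remove any factor that a library's members share, such as the high Rgs1, Rgs2 and Rgs10 of TH replicate 1. The FPKM ratio of Rgs1 to Rgs2 was 2.43, 2.57 and 2.30 on TH against 1.58, 1.53 and 1.46 on THCaP. It thus lay in a narrow band on each surface, where the level of either gene spread widely. The ratio of Rgs10 to Rgs2 was 0.984 ± 0.049 on TH and 1.0 ± 0.0915 on THCaP and overlapped. The ratio of Rgs14 to Rgs2 was 0.0785, 0.0718 and 0.0697 in TH and 0.134, 0.19 and 0.0805 in THCaP libraries, which did not overlap although THCaP replicate 3 was near TH.

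Of the summed FPKM of the 9 members, Rgs1 made up 49.6%, 48.9% and 47.1% on TH against 36.4%, 33.1% and 37.2% on THCaP. The share of Rgs19 was 6.06%, 6.89% and 7.06% in TH and 12.2%, 15.9% and 9.67% in THCaP libraries. The shares of both genes were apart between the surfaces, in opposite directions. The share of Rgs10 was 19.1% to 20.0% in TH and 23.2% to 23.5% in THCaP libraries. Shares must sum to the whole, so a smaller share of Rgs1 raises the others.

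**Figure D4:**
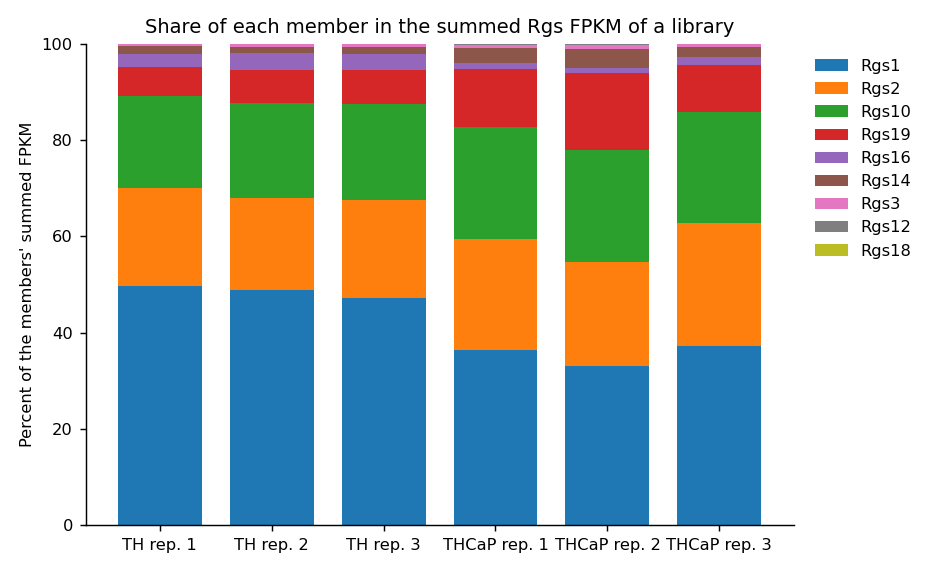
Percent of the members' summed FPKM (vertical axis) taken by each of the 9 members in each library (horizontal axis), as stacked bars. Rgs1 takes 47.1% to 49.6% in TH and 33.1% to 37.2% in THCaP libraries.

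The genes whose level followed a called member most closely over the 6 libraries were found by the root mean square difference between centred log2 CPM profiles, among 9502 genes whose mean reached 5 CPM. For Rgs16 they were Cd40, a co-stimulatory receptor (0.16 log2 units), and the transcription factor Myc (0.19), where the median gene differed by 0.98. For Rgs1 they were the cytokine gene Osm (0.04) and Plekhn1 (0.06), with a median of 0.52. For Rgs19 they were Aars2, the mitochondrial alanyl-tRNA synthetase (0.02), and Letm1, a mitochondrial inner membrane protein (0.02), with a median of 0.27. Osm was lower on THCaP by a log2 fold change of −0.88, next to −0.87 for Rgs1, a nearness that follows from how Osm was chosen.

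Among the other genes of the table whose symbols begin with Rgs, 3 of 9 were tested, namely Rgs8, Rgs11 and Rgs9bp. These 9 share the start of a symbol, which does not tell if each encodes an RGS domain. Rgs9bp, at 5 to 15 counts in a library, was not called (log2 fold change −0.09, SE 0.47, edgeR adjusted p = 0.908). Rgs8, the neighbour of Rgs16, had 22, 22 and 21 counts in TH and 4, 8 and 4 counts in THCaP libraries. It fell (log2 fold change −2.04 ± 0.40 SE by edgeR, adjusted p = 0.00983), but it passed the filter through its TH libraries alone, and without THCaP replicate 1 the call was lost (adjusted p = 0.0506). On the log2(FPKM + 1) scale with no filter its difference was −0.11. Rgs11, whose protein pairs with Gβ5, had means of 52.7 ± 6.13 CPM (TH) and 48.2 ± 10.1 CPM (THCaP; SD, n = 3 each) and was not called (−0.13, SE 0.15, edgeR adjusted p = 0.554; 0.03 without THCaP replicate 2). Some of its exonic bases overlap Arhgdig. Further from Rgs16, Glul (154.5 kb, 0.32) and Dhx9 (252.7 kb, 0.36) were called higher and Lamc1 (407.6 kb, −0.60) lower, so these 3 genes, named after their values were seen, did not share a direction.

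The machinery on which RGS proteins act was described by lists of related genes. Of 109 tested genes in 8 lists, 19 fell and 10 rose, or 26.6%, beside 23.6% of all tested genes. With scaling to library totals alone, 17 fell and 19 rose, so the balance of directions depended on scaling. Of 11 alpha subunits 3 fell and 1 rose, with a median log2 fold change of −0.01 (2 and 2 with library totals). Gna13, an alpha subunit that links receptors to the actin cytoskeleton, fell from 505 ± 46.8 CPM to 325 ± 56.8 CPM (SD, n = 3 each; −0.64, SE 0.13, edgeR adjusted p = 0.0108) and kept its call without each library in turn. Gnaq (−0.41), the activator of phospholipase C-beta, and Gnal (−0.67) fell, and Gna15 (0.46), a Gq family member of blood cells, rose. Omitting any of TH replicates 2 and 3 or THCaP replicates 1 and 2 ended the call of each of these 3, with adjusted p from 0.0562 to 0.127, and Gnaq also without TH replicate 1 (0.0792) and with library totals (0.0559). Gnai2 (616 CPM on TH, 666 on THCaP, edgeR adjusted p = 0.286) and Gnai3 (194 and 191 CPM, adjusted p = 0.849), the main substrates of RGS proteins in leukocytes, were not called, and were named after their values were seen.

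Of 9 beta and gamma subunits 0 were called by edgeR, DESeq2 or limma-voom (1 higher with library totals), while at an unadjusted p under 0.05 edgeR gave 2 and the others 1 each. The beta subunit genes Gnb1 (0.11, SE 0.07) and Gnb2 (0.03, SE 0.08) had the highest mean CPM of this list. Of 7 receptor kinases and arrestins 1 rose, Grk6 (0.35, SE 0.07), which phosphorylates activated receptors. Of 8 other genes with an RGS homology domain 1 fell, the sorting nexin Snx13 (−0.55, SE 0.11). Of 7 alpha subunit chaperones and GoLoco genes 1 fell, Gpsm1 (−0.53, SE 0.14). The calls of Grk6 and Snx13 were lost without TH replicate 2 (adjusted p = 0.0707 and 0.0523) or TH replicate 3 (0.0624 and 0.0519), that of Grk6 also without THCaP replicate 1 (0.058), and that of Gpsm1 without any library but THCaP replicate 3 (0.0505 to 0.0969).

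Of 30 second messenger effectors 4 fell and 2 rose (median −0.04), and with scaling to library totals alone 4 fell and 6 rose. Omitting TH replicate 2 left 2 lower and 0 higher, omitting either TH replicate 3 or THCaP replicate 1 left 3 lower and 0 higher, omitting THCaP replicate 2 left 2 lower and 2 higher, and omitting THCaP replicate 3 gave 6 lower and 5 higher. Where edgeR called 0 higher, 4, 6 and 3 effectors, in that order of omission, were higher at an unadjusted p under 0.05. Pde4b, a cyclic AMP phosphodiesterase induced by LPS, fell from 32.0 ± 1.88 CPM to 20.0 ± 1.81 CPM (SD, n = 3 each; −0.68, SE 0.10, edgeR adjusted p = 0.00453). The subunits of PI3-kinase gamma, which Gβγ activates, did not move together. The adaptor Pik3r5 fell (−0.56, SE 0.10), while the other adaptor Pik3r6 (0.45, SE 0.10) and the catalytic subunit Pik3cg (0.30, SE 0.07) rose. Pik3r6 and Pik3cg lost their calls without TH replicate 2 (adjusted p = 0.0645 and 0.0827), TH replicate 3 (0.0747 and 0.0743) or THCaP replicate 1 (0.0618 and 0.112).

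On the list of myeloid receptors of the G protein coupled class, 9 of 34 tested genes fell and 6 rose (median −0.19). That is 44.1%, beside 23.6% of all tested genes. The list goes by receptor class, and whether each receptor couples to a G protein was not tested. With scaling to library totals alone 8 fell and 8 rose. Omitting TH replicate 2 left 4 lower and 2 higher, omitting TH replicate 3 left 4 lower and 1 higher, omitting THCaP replicate 1 left 6 lower and 1 higher, and omitting THCaP replicate 2 left 7 lower and 3 higher. The niacin receptor Hcar2 (−1.24, SE 0.27), the chemerin-binding Ccrl2 (−0.96, SE 0.22) and the lipid-sensing Gpr132 (−0.73, SE 0.13) fell. The fractalkine receptor Cx3cr1 rose from 98.5 ± 25.4 CPM to 223 ± 57.1 CPM (SD, n = 3 each; 1.18, SE 0.21, edgeR adjusted p = 0.00753). Ccrl2 lost its call without TH replicate 2 (adjusted p = 0.0581) or TH replicate 3 (0.0514), and the other 3 kept theirs without each library in turn.

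**Figure D5:**
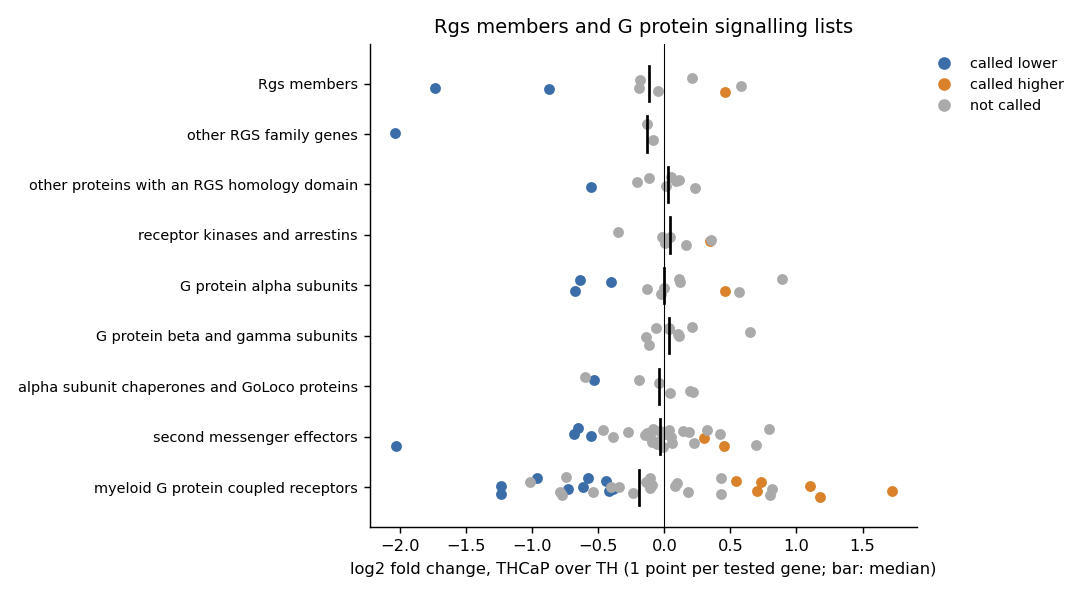
Log2 fold change of THCaP over TH (horizontal axis) for each tested gene of the Rgs members and of the 8 G protein signalling lists (rows), coloured by the edgeR call, with a bar at the median of each row. The medians lie between −0.19 and 0.04, and both directions occur among receptors, effectors and alpha subunits.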

How the data were processed

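RNA sequencing gave 6 libraries, 3 per surface; groups and replicate numbers came from the labels. The deposited values are raw counts, listed by gene symbol. The tools fastp, HISAT2 and HTSeq and the build mm10 are named by the submitters' processing notes. Tool versions, the annotation and the strand setting: not given in the sources used here. The FPKM deposited by the authors follow from these counts: for the 11923 genes that reached 10 counts in some library, 100% of values implied a whole gene length (tolerance 0.01 bases).

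The count table was fitted by edgeR 4.0.16 in R 4.3.3 (filterByExpr with minimum count 10 and minimum total 15, TMM factors, robust quasi-likelihood F test, no covariate), with Benjamini-Hochberg adjustment over 11480 genes and calls under 0.05. The procedure was run on simulated counts with the same dispersion for every gene and no outlying library. That run cannot show how often calls are wrong in these libraries. A positive log2 fold change means higher on THCaP, and its SE is its size over the root of F. CPM are counts divided by TMM-scaled totals of tested genes. With 3 libraries per surface an exact two-sided permutation test of 1 value cannot go below 0.1. Depth was 28000099 to 30317108 counts.

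The members and lists were chosen with earlier results of these data known. All members are named, and of each list up to 4 called genes of at least 5 CPM with the largest change (2 of the highest expression where none was called), plus the 2 genes nearest in profile to each called member. Alternatives were DESeq2 1.42.0, limma-voom (limma 3.58.1), RLE factors, library totals, no filter, 5 CPM in 3 libraries, a replicate block, each library left out, and limma on log2(FPKM + 1), with a minimum mean FPKM of 1 or none, and on log2(FPKM + 0.1) with that minimum. Leaving out TH replicate 1 and THCaP replicate 3 together was chosen after seeing the data.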

Additional observations from a re-analysis of the deposited data

How the results depend on the processing

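Rgs16 and Rgs1 were called lower in every setting tried except for Rgs1 with log2(FPKM + 1) and no filter, where 1 member was called lower in place of 2. The number of members called higher was 1 as reported and 2 with DESeq2, library totals, no filter, the replicate block, either FPKM setting with a minimum mean of 1, or TH replicate 1 and THCaP replicate 3 both omitted (chosen after seeing the data). It ranged from 0 to 2 when each library was left out. By edgeR it was 0 if TH replicate 2, TH replicate 3 or THCaP replicate 1 was omitted, where 1, 2 and 2 members were higher at an unadjusted p under 0.05. In the G protein signalling lists the number lower was 19, ranged from 8 to 24 with each library left out and was 6 with log2(FPKM + 1) and no filter. The number higher was 10, ranged from 1 to 14 with each library left out, and was 19 with library totals and 20 with both libraries omitted. For all genes, in place of 1376 lower and 1333 higher, counts with each library left out ranged from 465 to 2020 lower and from 291 to 2145 higher (fewest without THCaP replicate 1, most without THCaP replicate 3). With DESeq2 they were 1723 lower and 1691 higher, with the replicate block 1457 and 1424, and with library totals 1063 and 1904. No filter in edgeR gave 1415 and 1423 of 15233 tested genes. The counts were 528 and 766 with log2(FPKM + 1) and no filter, 964 and 1762 with a minimum mean of 1, and 2582 and 2625 with both libraries omitted. Whether replicate numbers pair the samples is not known. Deviations of same-numbered libraries from their group means correlated at −0.02, −0.06 and 0.05. With 3 libraries per surface, whose deviations are tied to each other by the group mean, these values cannot settle it. The largest correlation of any TH with any THCaP library was 0.08 (TH replicate 1 with THCaP replicate 2), and no pairing is read from it. With the replicate block 2 members were lower and 2 higher, the addition being Rgs14 (adjusted p = 0.00996), and 21 and 13 genes of the lists. Depth limits Rgs18, with at most 9 counts in a library.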

Other observations

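Some receptors beyond those named by rule, chosen after their values were seen, were called in either direction, and no class of receptors was tested. P2ry6, a receptor for extracellular nucleotides, rose from 23.9 to 39.6 CPM (means over 3 libraries per surface; log2 fold change 0.73, edgeR adjusted p = 0.0277), and P2ry12 rose from 1.85 to 3.99 CPM (1.10, adjusted p = 0.04). P2ry2, also a nucleotide receptor, was not called, at 1.89 and 1.13 CPM (−0.74, edgeR adjusted p = 0.0554), with libraries that did not overlap. P2ry13 was called higher, with 6, 11 and 4 counts on TH against 23, 26 and 23 on THCaP, but it passed the filter through its THCaP libraries. Omitting either TH replicate 3 or THCaP replicate 1 left 1 myeloid receptor called higher, Cx3cr1. The calls of P2ry6, P2ry12 and P2ry13 were thus lost there. C3ar1 (−0.62, edgeR adjusted p = 0.00685), C5ar1 (−0.58, adjusted p = 0.0452), Ptger4 (−0.42, adjusted p = 0.0263), Ptgir (−0.39, adjusted p = 0.0212) and Cxcr4 (−1.24, adjusted p = 0.00849) fell with all libraries. Without TH replicate 2 or TH replicate 3, 4 myeloid receptors were called lower in place of 9. Hcar2 and Gpr132 were among these 4 in both cases, and Ccrl2 was not. Most of the decreases named in this paragraph thus lost their calls there, and which of them kept theirs is not given.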
